A study of Mus musculus with 8 samples.

Results

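Regulators of G protein signaling (RGS) are a family of proteins that shorten the signal of G protein-coupled receptors. A receptor bound by its ligand loads GTP onto a G protein alpha subunit and frees the beta and gamma subunits, and an RGS protein speeds the hydrolysis of that GTP and so ends the signal. In leukocytes RGS proteins limit responses to chemokines, in islets they bear on the receptors that tune insulin release, and in vessels *Rgs5* marks the mural cells that wrap capillaries. The 10 genes described here in whole pancreas were *Rgs1*, *Rgs2*, *Rgs3*, *Rgs4*, *Rgs5*, *Rgs10*, *Rgs14*, *Rgs16*, *Rgs18* and *Rgs19*. They were taken by gene symbol from the probes that are not array controls, which gave 10 of 21597 genes and 19 of 34850 probes with a symbol.

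Pancreas RNA from 8 female NOD mice, an inbred strain that develops autoimmune diabetes, was labeled with Cy5 (red), 1 mouse to each of 8 two-color arrays, replicates 1 to 8. The other dye, Cy3 (green), carried on every array the same pool of RNA from 8 NOD.B10 mice, a strain on the NOD background that carries the H2 region of B10 mice. Both strains were 12 weeks old, and no mouse was treated. Since the dyes were never exchanged and the pool is a single sample, a dye effect at a probe and a strain difference cannot be told apart, and the spread among NOD.B10 mice is not measured. A log2 ratio above 0 means a higher signal in the NOD mouse, and values are the mean over 8 mice with the SD. Of the 10 genes, *Rgs1*, *Rgs2*, *Rgs4*, *Rgs5*, *Rgs16* and *Rgs18* lie on mouse chromosome 1, *Rgs19* on 2, *Rgs3* on 4, *Rgs10* on 7 and *Rgs14* on 13, so that none is on chromosome 17, which holds H2. The tissue label was checked with acinar genes, of which 13 of the 14 with a probe had red signal well above background on all 8 arrays.

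Signal strength set what could be read. Green was well above background at 57.6% to 60.7% of the spots of an array and red at 21.6% to 35.3%, and where a spot was too weak to tell from background the files hold a stand-in value made from the noise. Where both dyes were stand-ins, or a stand-in would have turned the ratio round, the deposited ratio is 0. Replicates 1 to 4 came from slide 1 and replicates 5 to 8 from slide 2, where red spots were noisier (median coefficient of variation per array of 38.2% to 63.5%, compared to 16.1% to 24.8%), and the grid of replicates 5, 6 and 7 was not rated good by the scanning software. For the brightest probe of each gene, red was well above background on all 8 arrays for *Rgs2* and *Rgs3*, on 7 for *Rgs10*, on 6 for *Rgs19*, on 5 for *Rgs5* and on 1 for *Rgs16*. *Rgs1*, *Rgs4*, *Rgs14* and *Rgs18* had it on none. The tests used limma with Benjamini-Hochberg adjustment over 28105 probes, and 17 of the 19 RGS probes, for all 10 genes, met the minimum red value to enter them. Stand-in values count toward that minimum, and red was a stand-in on all 8 arrays at the tested probe of *Rgs1* and at 1 of *Rgs3*, as at 9.36% of all tested probes, and on 7 arrays at the tested probe of *Rgs18*. The brightest probe of 9 genes was among these 17, and that of *Rgs18* was not.

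None of the 10 genes was called at a change of at least 2-fold with an adjusted p under 0.01, a rule that 1.72% of all tested probes met. At an adjusted p under 0.01 with no minimum change, 1 of the 17 RGS probes passed (5.88%), compared to 6.94% of all tested probes, and it was the brightest probe of *Rgs3*, lower in NOD. At an adjusted p under 0.05 the count was 4 of 17 (23.5%), compared to 19.3% of all tested probes. Those 4 were both bright probes of *Rgs3* and the probes of *Rgs14* and *Rgs16*. Without the 3 arrays whose grid was not rated good, 3 of these 4 were no longer under 0.05, with adjusted p-values of 0.123 for the variant 1 probe of *Rgs3*, 0.137 for *Rgs14* and 0.060 for *Rgs16*. In that fit *Rgs2* had a limma adjusted p of 0.013, and over all tested probes the number under 0.05 went from 5423 to 3003. The median of the mean log2 ratios was 0.11 over the 9 genes tested on their brightest probe, compared to -0.08 over the 18391 genes with a tested brightest probe.

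**Figure D1:**
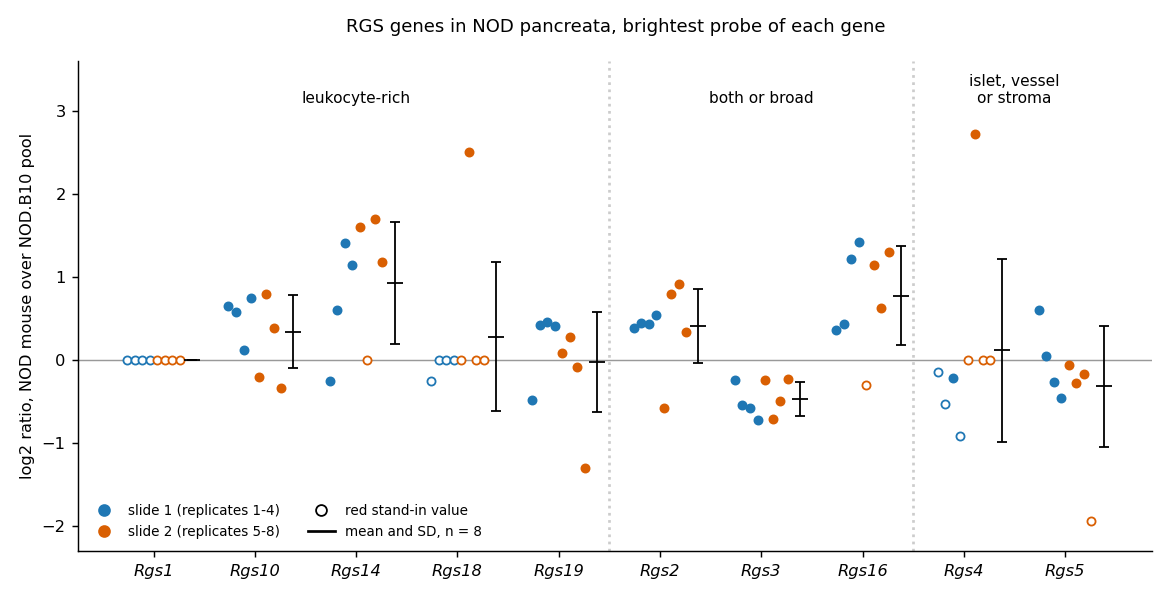
Log2 ratio of each NOD mouse over the NOD.B10 pool (vertical axis) for the brightest probe of the 10 RGS genes, grouped by the cells they are best known from. Points are mice, coloured by slide, open where red was a stand-in value, and bars are the mean and SD of 8 mice. *Rgs3* is the gene with all 8 mice on the same side of 0, and single mice stand far from the rest for *Rgs2*, *Rgs4*, *Rgs5* and *Rgs18*.

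*Rgs3*, a broadly expressed member that acts on the Gi and Gq classes of alpha subunit, was read by 2 strong probes whose deposited ratios had opposite signs, although the sign of one turned with the scaling. The files hold 5 probes for it, 1 matched to transcript variant 1 and 4 to transcript variant 2. In the GENCODE M21 annotation (GRCm38) variant 1 has 20 exons and spans chr4:62559847-62659840, variant 2 has 16 exons and spans chr4:62619520-62703018, both on the plus strand, and 9 exons are the same. Their starts lie 59.7 kb apart, so that different sequence lies before each. Their ends differ as well, and the use of each start was not tested. The bases before each start are shown because the probes matched to these variants gave different ratios, with the letters TATAAA in capitals. The first is chr4:62559597-62559846 and the second chr4:62619422-62619519, both from RefSeq on GRCm38.p6, plus strand, 5′ to 3′.
variant 1: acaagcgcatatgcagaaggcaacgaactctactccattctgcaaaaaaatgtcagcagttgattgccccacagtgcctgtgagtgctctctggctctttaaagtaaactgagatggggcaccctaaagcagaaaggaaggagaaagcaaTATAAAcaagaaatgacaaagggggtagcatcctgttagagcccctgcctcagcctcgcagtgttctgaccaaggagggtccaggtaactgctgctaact
variant 2: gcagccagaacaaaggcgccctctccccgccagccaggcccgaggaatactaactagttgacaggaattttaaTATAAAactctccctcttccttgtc
TATAAA ends 95 bases before the annotated start of variant 1 and 20 bases before that of variant 2. Searched on both strands, these letters were present in 12.4% of 32851 mouse promoters over 250 bases and in 5.49% over 98 bases, the lengths of the windows shown. The letters GGGCGG, searched the same way, were in neither window and in 32.7% and 24.5% of all promoters over the same lengths. A match of letters is a description and not a binding site.

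The brightest *Rgs3* probe, matched to variant 2 (chr4:62175962-62176021 on mm8, the build of the files), was lower in NOD in all 8 mice. Of all tested probes, 13.3% had ratios of a single sign in the 8 mice, and 1 of the 17 RGS probes did. Its log2 ratios in replicates 1 to 8 were -0.24, -0.54, -0.58, -0.73, -0.24, -0.71, -0.50 and -0.23. The mice overlapped between slides, with means of -0.52 on slide 1 and -0.42 on slide 2. The mean was -0.47 ± 0.21 (SD, n = 8), a median of 69.7% of the pool, with a limma adjusted p of 0.0051 and an exact two-sided sign-flip p of 0.0078, the smallest that 8 arrays allow. Red signals ran from 2598 to 6148 and green signals from 4257 to 7261, all well above background. The limma adjusted p was 0.0076 to 0.0165 with 1 mouse left out, and above 0.01 without replicate 2, 3, 4, 6 or 7. The mean was -1.08 with median-centered signals and -0.89 with normexp and loess, the latter with an adjusted p of 0.023. The adjusted p was 0.049 without the 3 arrays whose grid was not rated good, at a mean of -0.46.

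The variant 1 probe (chr4:62146085-62146144 on mm8) was higher in 7 of 8 mice. Its log2 ratios were 0.57, 0.31, 0.36, -0.02, 1.10, 0.64, 0.81 and 0.82 in replicates 1 to 8. All 4 mice of slide 2 were above all 4 of slide 1, with means of 0.84 and 0.30. The mean was 0.57 ± 0.35 (SD, n = 8), a median of 152% of the pool, with a limma adjusted p of 0.0156. Red signals of 508 to 1337 and green signals of 514 to 856 were again well above background on every array. Its sign depends on the scaling, since the mean was -0.12 with median-centered signals and -0.08 with normexp and loess.

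The difference between the probes kept its sign under each scaling tried. In each mouse the variant 1 ratio was above the ratio of the brightest probe, by 0.81, 0.86, 0.94, 0.70, 1.34, 1.36, 1.31 and 1.05 in replicates 1 to 8. The mean difference was 1.05 ± 0.26 (log2, SD, n = 8), or 2.06-fold, with an exact two-sided sign-flip p of 0.0078. It was 0.83 on slide 1, 1.26 on slide 2, 1.00 to 1.09 with 1 mouse left out, 0.96 with median-centered signals and 0.81 with normexp and loess. This pair was chosen after its values were seen, and a dye effect particular to either probe cannot be told apart from it. The other 3 variant 2 probes lie 40.7 to 42.4 kb beyond the variant 1 probe and were dim, with red well above background on 0 arrays and green signals of 19.3 to 79.8. Their means were -0.40 ± 0.67, 0.03 ± 0.33 and -0.45 ± 0.55, with limma adjusted p-values of 0.253, 0.917 and 0.127. At the last of these, red was a stand-in on all 8 arrays, and the ratio was -0.52 to -1.34 on slide 1 and 0 on slide 2, where the stand-ins were higher (84.3 to 129, compared to 28.4 to 42.7). Which transcripts the brightest probe detects was not tested.

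**Figure D2:**
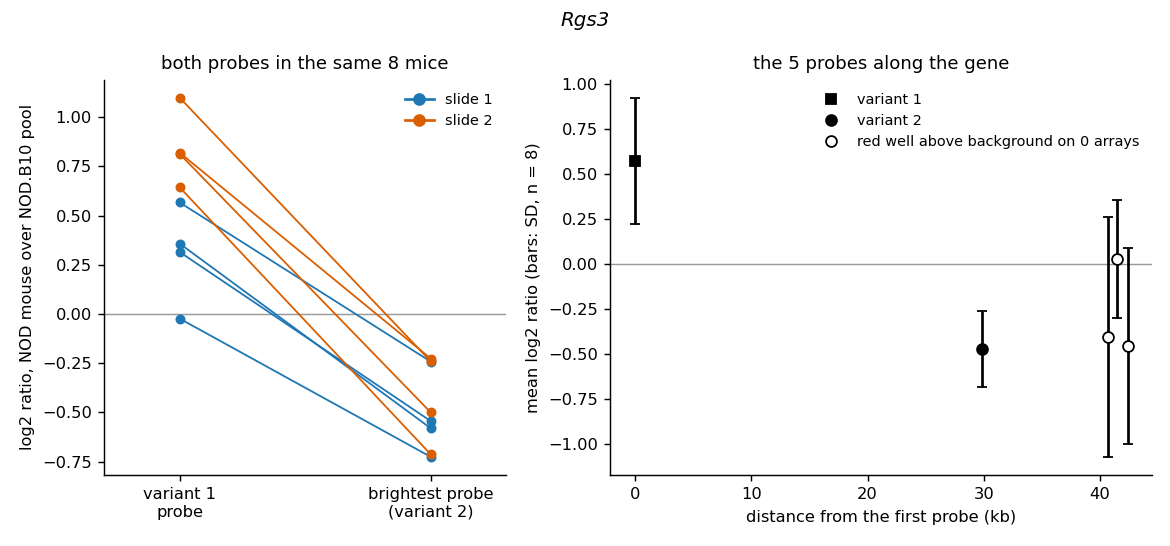
Left, log2 ratio of the variant 1 probe and of the brightest probe of *Rgs3*, with each line 1 mouse, coloured by slide. Right, mean log2 ratio and SD (n = 8) of all 5 *Rgs3* probes by distance along the gene from the variant 1 probe in kb; every line on the left falls, and the 3 open points are dim probes.

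Among the genes best known from leukocytes, *Rgs14* had the highest mean. It encodes a scaffold that also binds small GTPases of the Ras and Rap families. At its single probe (chr13:55394023-55394082 on mm8) the log2 ratios in replicates 1 to 8 were -0.25, 0.59, 1.40, 1.15, 1.60, 0.00, 1.70 and 1.18. In 6 mice it was above 0, replicate 1 was below it, and replicate 6 is listed at 0 with a red stand-in. The mean was 0.92 ± 0.73 (SD, n = 8), a median of 224% of the pool, with a limma adjusted p of 0.037 and an exact two-sided sign-flip p of 0.031. With 1 mouse left out the adjusted p was 0.022 to 0.087, and under 0.05 without replicate 1 or 6. Red signals were 49.8 to 215 against green signals of 51.7 to 70.7, and red was well above background on no array while green was on all 8. With normexp and loess, which adds an offset to every signal, the mean was 0.09 and the adjusted p 0.12. The ratio of the processed signals gave 0.96 with an adjusted p of 0.0079.

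*Rgs10*, a small RGS protein abundant in macrophages and microglia, had log2 ratios of 0.65, 0.58, 0.12, 0.74, -0.20, 0.79, 0.38 and -0.34 in replicates 1 to 8. Both mice below 0 were on slide 2. The mean was 0.34 ± 0.44 (SD, n = 8) with a limma adjusted p of 0.151, and red signals of 269 to 910 against green signals of 341 to 527. *Rgs19*, which binds Gi alpha subunits and is found on Golgi and transport vesicles, had 2 probes that start 348 bases apart and gave unlike values. The brightest ran from -1.30 to 0.45 with 5 mice above 0 (mean -0.03 ± 0.60, limma adjusted p = 0.978). The other was lower in 7 of 8 mice, from -1.66 to 0.20 (mean -0.69 ± 0.61, limma adjusted p = 0.053), with red well above background on no array. In both probes replicate 8 was the lowest mouse.

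*Rgs1*, induced on activation of B and T cells and known to blunt their response to chemokines, was not detected in the NOD mice. Red was a stand-in on all 8 arrays and green on 4, neither was well above background on any array, and all 8 deposited ratios are 0, as they are for 5.52% of tested probes. Red stand-ins were 18.0 to 27.1 on slide 1 and 37.5 to 83.1 on slide 2. Taking the ratio of these processed signals instead of the deposited ratio gave a mean of 1.51 and a call, which follows from dividing a red stand-in by a weaker green value. *Rgs18*, a regulator of platelets and their precursors, had 2 probes, both dim in each dye. Each had a ratio above 2 in replicate 6 (2.50 and 2.32), and the others of the 8 were 0 apart from -0.25 in replicate 1 at the brighter probe. The second probe was the one tested (mean 0.29 ± 0.82, limma adjusted p = 0.499). Replicate 6 had a ratio above 2 at 1.44% of all tested probes, compared to 0.470% to 2.02% over the 8 arrays.

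Of the genes found in leukocytes and in other cells, *Rgs16* is induced in activated T cells and in islet cells, and *Rgs2* acts mainly on the Gq class. At *Rgs16* (chr1:155507332-155507391 on mm8) red signals in replicates 1 to 8 were 68.6, 67.3, 112, 147, 48.2, 131, 66.4 and 118, against green signals of 43.1 to 59.6. The log2 red signals of the 8 mice had an SD of 0.58 and the 8 readings of the same green pool an SD of 0.16. Red was the noisier dye, with a median coefficient of variation per array of 16.1% to 63.5%, compared to 6.8% to 13.8% for green. Dye noise and differences between mice therefore cannot be told apart in these SDs. Replicate 5, a stand-in, was the mouse below the pool. The mean ratio was 0.77 ± 0.60 (SD, n = 8), 0.86 on slide 1 and 0.69 on slide 2, and with normexp and loess it was 0.08 with a limma adjusted p of 0.161. The limma adjusted p was 0.034 with 8 mice and 0.013 to 0.079 with 1 left out, under 0.05 where replicate 5 was the mouse left out, and a single array had red well above background.

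At *Rgs2* (chr1:145763381-145763440 on mm8), the gene besides *Rgs3* with strong signal in both dyes, the log2 ratios were 0.38, 0.44, 0.43, 0.54, -0.59, 0.79, 0.92 and 0.34 in replicates 1 to 8. In 7 mice it was above the pool, and replicate 5 was lower. The mean was 0.41 ± 0.45 (SD, n = 8), a median of 135% of the pool, with a limma adjusted p of 0.102. Without replicate 5 it was 0.55 with an adjusted p of 0.0083, and with any other mouse left out the adjusted p was 0.152 to 0.197. Slide 1 alone, with an SD of 0.07, gave 0.45 (limma adjusted p = 0.018) and slide 2 alone 0.36 (0.572). A second, dim *Rgs2* probe was listed at 0 in 6 mice and had a mean of 0.10.

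**Figure D3:**
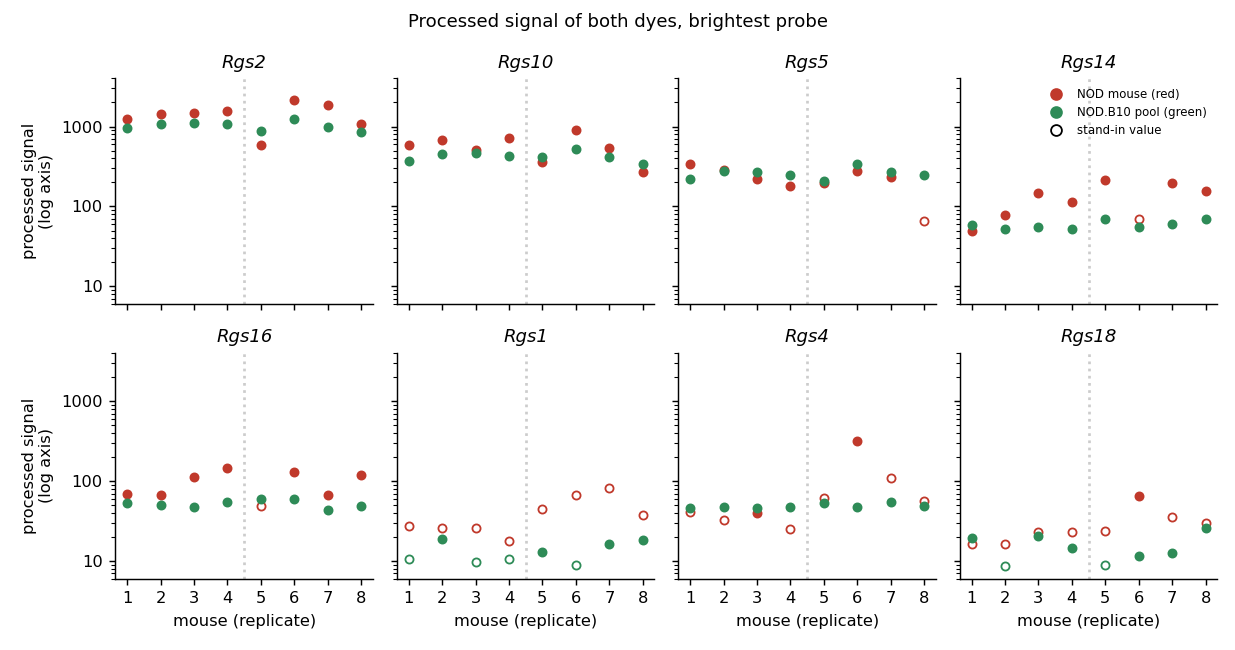
Processed signal of the NOD mouse (red) and of the NOD.B10 pool (green) on a log axis, for mice 1 to 8 at the brightest probe of 8 RGS genes, with open circles for stand-in values and a dotted line between the slides. *Rgs2* red is above green in 7 of 8 mice, and at *Rgs1* every red point is a stand-in.

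Of the genes known from islet, vessel or stroma, *Rgs5* (chr1:171529565-171529624 on mm8), the pericyte gene, had log2 ratios of 0.60, 0.05, -0.27, -0.46, -0.06, -0.28, -0.17 and -1.93 in replicates 1 to 8. In 6 mice it was below 0, and replicate 8, with a red stand-in, was far below the rest. The mean was -0.32 ± 0.73 (SD, n = 8, limma adjusted p = 0.413), and -0.09 without replicate 8. Its other probe had a mean of -0.16 ± 0.62 (limma adjusted p = 0.625), and there replicate 8 was at -0.82. *Rgs4*, which acts on Gi and Gq alpha subunits and is expressed in neurons and islet cells, had red well above background on no array. Its brightest probe was at -0.15, -0.53, -0.22 and -0.91 on slide 1 and at 0.00, 2.71, 0.00 and 0.00 on slide 2. Replicate 6 alone was above 0, with a red signal of 315 where the other mice had at most 108, and the mean of 0.11 ± 1.10 (SD, n = 8, limma adjusted p = 0.884) was -0.26 without it. The second *Rgs4* probe was listed at 0 in all 8 mice.

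Set against each other, the 4 tested leukocyte-rich genes had a median of 0.17 (means from -0.03 to 0.92, *Rgs1* at 0 included). It was 0.55 with median-centered signals, 0.65 with the ratio of processed signals and 0.09 with normexp and loess. The median-centered and processed-signal medians take in *Rgs1*, with red stand-ins on all 8 arrays, at 2.34 and 1.51. In the same order *Rgs10* was at 0.21 and 0.34, *Rgs14* at 0.77 and 0.96 and *Rgs19* at 0.32 and -0.03. With *Rgs18*, whose brightest probe was not tested and was above 0 in replicate 6 alone, the median of the 5 was 0.28, and 0 without replicate 6. *Rgs4* and *Rgs5* had means of 0.11 and -0.32, and the ranges of the means overlap. The cell type markers in the same libraries moved as follows. Of 19 leukocyte markers tested, 15 were higher in NOD and 4 lower, with a median of 1.01 that was 0.12 with normexp and loess, and *Cd52* (1.44 ± 0.65, limma adjusted p = 0.0049) and *Cd3e*, part of the T cell receptor complex (0.61 ± 0.31, limma adjusted p = 0.0076), rose in all 8 mice. With normexp and loess they were at 0.77 and 0.53, with limma adjusted p-values of 0.033 and 0.031. The summed red signal of the 19 leukocyte markers was 6549 to 25355, compared to a summed green signal of 4563 to 10978. *Cd3e* alone made up 3637 to 15423 of red and 2353 to 7777 of green. Its green median was 4925, and the 8 readings of the pool had an SD of 0.67 in log2. *Cd3d* and *Cd3g*, of the same complex, had green medians of 29.1 and 54.4, and what the *Cd3e* probe detects was not tested. Of 13 vessel and mural markers 11 were lower (median -0.42), compared to 59.0% of all genes, and 8 were lower with median-centered signals and with normexp and loess (medians -0.32 and -0.06). Among them *Kdr*, a receptor of endothelial cells (-0.42 ± 0.13, limma adjusted p = 0.0015), and *Des*, the muscle filament desmin (-0.87 ± 0.17, limma adjusted p = 0.00036), fell, the latter with stand-ins at 0.5 or more of its red spots on all 8 arrays. Of 7 stroma markers 6 were lower (median -0.24) and the collagen *Col1a1* fell (-0.54 ± 0.23, limma adjusted p = 0.0045). Of 15 islet markers 14 were lower, with a median of -0.48, which was -0.84 with median-centered signals and -0.16 with normexp and loess. With the deposited ratio none had a limma adjusted p under 0.01, from *Ppy* at -1.02 to *Iapp* at 0.10. Of 4 platelet markers tested, none passed, from *Gp1bb* at -1.09 to *Gp6* at 1.54, and 3 of the 4 had red well above background on no array. With normexp and loess *Col1a1* was at -0.42 (limma adjusted p = 0.013), and *Kdr* was at -0.09 (limma adjusted p = 0.089) and *Des* at -0.06 (0.12), and with median-centered signals *Des* was at -0.32 (0.21). Red was well above background on no array, counting an array where at least 0.5 of a gene's spots were, for the vessel and mural markers *Tek*, *Abcc9* and *Des* and the islet marker *Scg2*. In whole pancreas, fewer cells of a type and less RNA per cell cannot be told apart, and the part of these markers in the RGS values was not tested.

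In the rest of the pathway, 3 of 58 tested genes (5.17%) had an adjusted p under 0.01, compared to 8.14% of all genes tested on their brightest probe. Of 13 other genes of the RGS list with a probe, 12 were tested, 5 were higher, 5 lower and 2 at 0. The list takes in the RGS-binding proteins *Rgs7bp* and *Rgs9bp*. With median-centered signals 10 were higher, with the ratio of processed signals 8 and with normexp and loess 6. Red was well above background on no array for 9 of the 13. Among those higher with median-centered signals, *Rgs6*, *Rgs7bp* and *Rgsl1* (2.87, 1.92 and 2.55) had red stand-ins on all 8 arrays. *Rgs12*, a large family member, was called lower (-1.41 ± 0.73, limma adjusted p = 0.0082), with red stand-ins on 5 of 8 arrays. It was at -1.92 with median-centered signals and at -0.18 with normexp and loess, with a limma adjusted p of 0.050 there and no call. Of 15 alpha subunits tested 7 were higher and 8 lower, and *Gna12* (0.35 ± 0.13, limma adjusted p = 0.0029) and *Gna11*, of the Gq class (0.50 ± 0.21, limma adjusted p = 0.0042), rose in all 8 mice with red well above background throughout. *Gna12* was at 0.63 with median-centered signals and 0.43 with normexp and loess, with limma adjusted p-values of 0.014 and 0.034, whereas *Gna11* was at -0.04 and -0.03. Of 16 beta and gamma subunits 8 were higher and 8 lower, none with an adjusted p under 0.01, from *Gng13* at -1.17 to *Gnb3* at 0.78. Of 15 chemokine and other Gi-coupled receptors of leukocytes 11 were higher and 4 lower, none with an adjusted p under 0.01, from *Cx3cr1* at -0.45 to *Cxcr6* at 0.70. Red was well above background on no array for 11 of the 16 receptors with a probe.

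**Figure D4:**
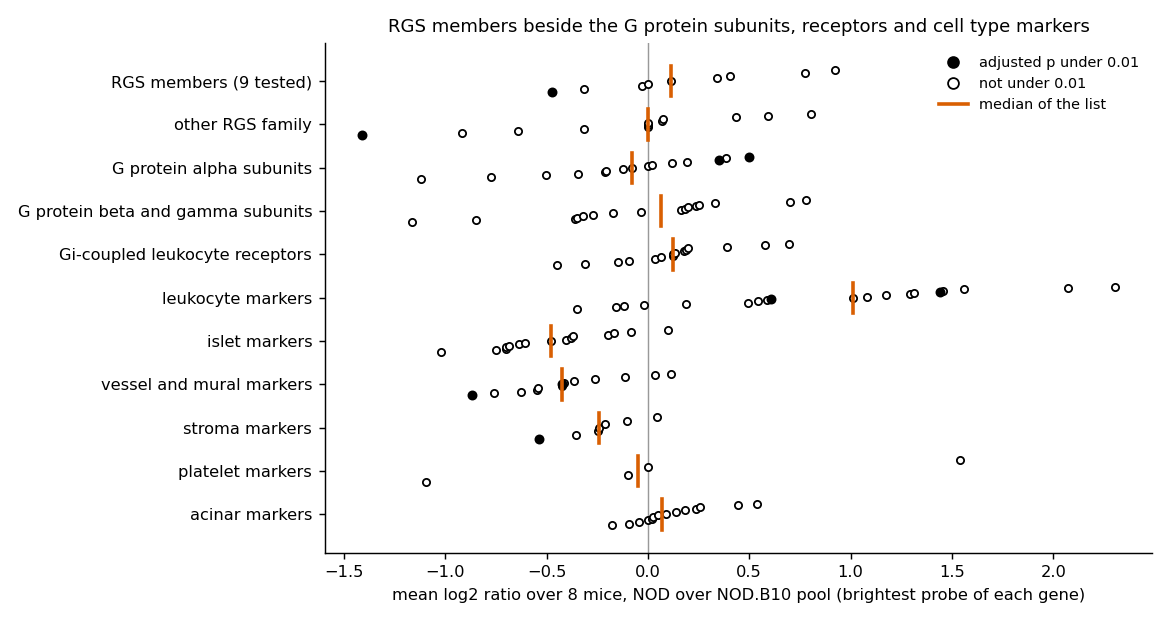
Mean log2 ratio over 8 mice (horizontal axis) of each tested gene, 1 point a gene at its brightest probe, for the RGS members, the rest of the pathway and the cell type markers. Filled points have an adjusted p under 0.01 and the bars are list medians, which run from -0.48 for islet markers to 1.01 for leukocyte markers, with 0.11 for the RGS members.

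The genes whose log2 ratios over the 8 mice were most like those of *Rgs16* were *Atp6v1a* (Pearson r = 0.94), *2810432D09Rik* (0.93), *Rhoa* (0.93), *Ptpn1* (0.93) and *S100a1* (0.91), of 8068 genes with red well above background on at least 6 arrays. After the slide means were subtracted, r was 0.96, 0.96, 0.94, 0.93 and 0.91. These are descriptions over 8 arrays that share the pool, the highest of many, and their own means ran from -0.24 to 0.02. For *Rgs1*, with a ratio of 0 in every mouse, no such likeness can be computed.

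The way spots were turned into ratios moved several genes. It also moved the median over all tested probes, from -0.09 with the deposited ratio to 0.07 with median-centered signals and -0.01 with normexp and loess. With median-centered signals *Rgs1* (2.34), *Rgs16* (1.05) and *Rgs3* (-1.08) were called, while 7087 of 28105 probes were called in all. At *Rgs1* red was a stand-in on all 8 arrays and green on 4, and neither was well above background on any array. With normexp and loess no RGS gene was called, and *Rgs16* was at 0.08. *Rgs3* was below 0 under all 4 ways of making the ratio, and *Rgs2*, *Rgs10*, *Rgs14* and *Rgs16* were above 0 under all 4. *Rgs5* and *Rgs19* were below 0 with the deposited ratio and above 0 with median-centered signals and with normexp and loess.

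**Figure D5:**
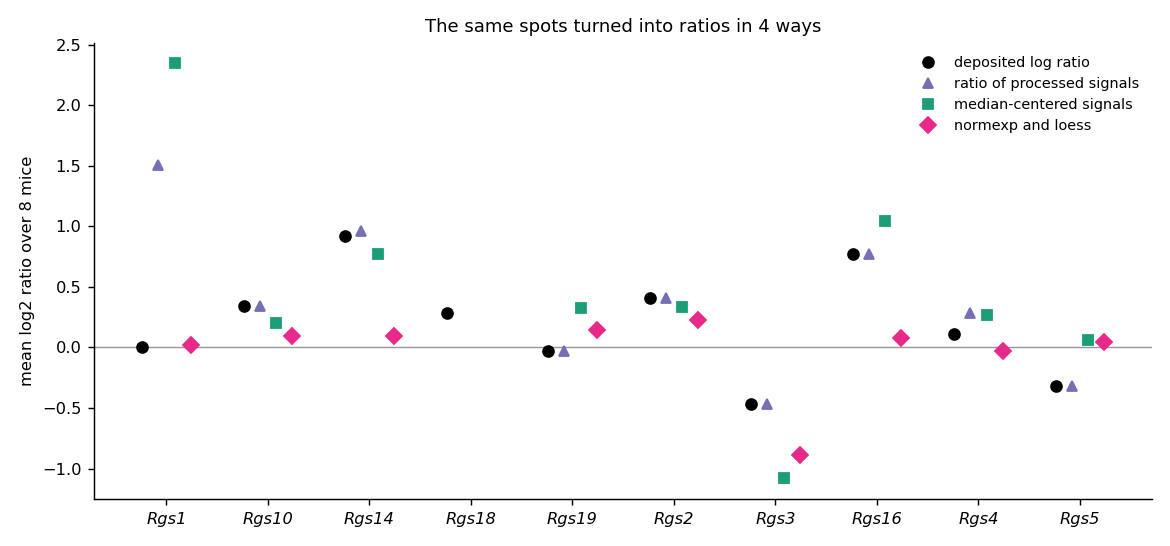
Mean log2 ratio over 8 mice (vertical axis) of the brightest probe of each RGS gene with the deposited ratio, the ratio of processed signals, median-centered signals, and normexp with loess; *Rgs18*, not tested, has the deposited value only. *Rgs1*, at which red was a stand-in on all 8 arrays, runs from 0 to 2.34, and *Rgs3* stays below 0.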

How the data were processed

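The authors extracted the scanned arrays with Agilent Feature Extraction (version 10.7.3.1), which subtracted background, removed a surface trend and normalized the dyes. The deposited files give per spot the log10 of red divided by green, an intensity (processed signal) for each dye, and other values such as flags for background and stand-in values. Probe positions are on mm8.

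Log10 ratios were converted to log2 and spots of a probe averaged, with a flag counted where at least 0.5 of the spots had it. Tested probes had a symbol and a red signal no lower than 25 on 4 or more of the 8 arrays. Means were tested against 0 with limma (version 3.58.1, R 4.3.3), Benjamini-Hochberg adjusted, and single probes also by all 256 sign flips. The brightest probe is that with the highest mean of log2 red and log2 green. The code was tested on simulated data. Tables and plots used Python 3.11.15, pandas 2.3.3, numpy 2.4.6, matplotlib 3.10.9 and scipy 1.17.1. Alternatives were other statistics, filters and calls, normexp (offset 50) with loess, centering on the median spot, array weights, slide as a covariate and mice left out, and, added after the values were seen, arrays with a good grid only and each slide alone. All members and all probes of them were named. Of other lists, genes past an adjusted p of 0.01 were named, or else the extremes. Members and lists were chosen with earlier results of these data known. Promoter sequences were matched by symbol for 7 of the 10 genes, and only those of *Rgs3* are shown.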

Additional observations from a re-analysis of the deposited data

Results flagged for a closer look

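Of 17 RGS probes whose ratios varied between mice, 7 had a mouse whose gap to the next, as a share of the range of the 8 mice, was past Dixon's 95% limit. Chance alone does this in about 1 of 20 groups, and many of the other ratios at these probes are listed at 0. Replicate 6 stood apart, high, at *Rgs4* (2.71) and at both *Rgs18* probes (2.50 and 2.32). Replicate 8 stood apart at the brightest *Rgs5* probe (-1.93) and at the dim *Rgs2* probe (1.02). Replicate 5 stood apart at the brightest *Rgs2* probe (-0.59), and replicate 3 at a dim *Rgs3* probe (0.72).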

How the results depend on the processing

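No RGS gene was called with the deposited ratio and none was with any mouse left out, while the count was 3 with median-centered signals and 1 with the ratio of processed signals. *Rgs1*, with red stand-ins on all 8 arrays, is in both of the latter counts. Over all genes, 484 probes were called, compared to 308 with the plain statistic, 133 where red had to be well above background in at least 4 arrays, 7087 with median-centered signals, 4160 with the ratio of processed signals, 7 with normexp and loess, 919 at an adjusted p under 0.05, 1109 at 1.5-fold, 39 without the 3 arrays whose grid was not rated good, 0 on slide 1 (1433 at an unadjusted p under 0.05 and 2-fold), 3 on slide 2 and 243 to 336 with 1 mouse left out. The fits on fewer arrays also have fewer samples. For the other changes the cause was not tested.

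*Rgs4* turned negative with normexp and loess (-0.031), without the 3 arrays (-0.36), on slide 1 (-0.45) and without replicate 6 (-0.26, with a range of -0.26 to 0.26 over the mice left out). *Rgs5* turned positive with median-centered signals (0.064) and normexp and loess (0.043). *Rgs19* turned positive with median-centered signals (0.32), normexp and loess (0.14), array weights (0.091), on slide 1 (0.20) and without replicates 1 (0.037) and 8 (0.15), with a range of -0.098 to 0.15. Other *Rgs3* probes turned it positive (0.57 and 0.028). No paired analysis was possible because the arrays form 1 group. Slide as a covariate changed no RGS call. Red was well above background on fewer than 4 arrays for 5 of the 10 genes, which limits what their ratios show.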
